A study of Mus musculus with 2 samples.

Results

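ATP-binding cassette (ABC) genes were taken as every non-control probe on the array whose gene name was Abc, a subfamily letter from a to g and a number. These were 50 genes with 74 probes, of 34797 gene names with 55681 probes on the array. The genes were compared between 2 populations of 4T1, a BALB/C mouse mammary carcinoma line grown in culture without treatment. Cells were sorted with ALDEFLUOR, which makes cells glow by their aldehyde dehydrogenase (ALDH) activity, into ALDH-positive and ALDH-negative cells, and the RNA of each was put on 1 one-colour Agilent array. The labels of the arrays name them as the cancer stem cell and its counterpart, and the tie of these names to high and low ALDH activity comes from the study's design and methods. All cells came from 1 tumour line, and with 1 array per population there is no test, no p-value and no spread between cultures. Every error given here is the scanner software's error of both signals, combined on the log2 scale, and covers the measurement of the spots only. It was not taken from the spread of repeated spots.

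ABC proteins bind and split ATP. Most of them sit in a membrane and use this energy to carry a substrate across it, while the E and F subfamilies lack membrane segments and act on ribosomes and in translation. The drug efflux members export a wide range of anticancer drugs, conjugates and dyes, and their activity in tumour cells has long been tied to multidrug resistance and to stem-like cells that exclude dyes. They also bear on the ALDEFLUOR assay itself, because the fluorescent product of ALDH can be exported by these transporters and the assay buffer therefore holds an efflux inhibitor. The comparison asks whether their transcripts, and those of the rest of the family, differed between cells sorted on that fluorescence. The efflux members were the P-glycoprotein genes *Abcb1a* and *Abcb1b*, the multidrug resistance-associated protein genes *Abcc1* to *Abcc5*, and the breast cancer resistance protein gene *Abcg2*, in all 8 genes against 42 others.

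The probes have 60 bases, written in the sense of the mRNA. For the probe that stood for each efflux gene the last 30 bases are shown, because each value is the signal on 1 probe of 60 bases and not on the whole transcript. Positions are those of the array file on build NCBI37, and exon and untranslated region annotation of that build was not used here. Capitals mark AATAAA, the polyadenylation signal motif, which was searched on the probe strand only.
Abcb1a (chr5:8748105-8748134, plus strand): ctaccacctaagtaagcagcaaggtgtggt
Abcb1b (chr5:8865955-8865984, plus strand): tgactatctgaggtgctaagtatttttaat
Abcc1 (chr16:14474581-14474610, plus strand): gatagtcccaagaatttgatgtctgggaga
Abcc2 (chr19:43912109-43912138, plus strand): tgtcataggggcacagatacacagtttgtt
Abcc3 (chr11:94204612-94204641, minus strand): tccactgatgaAATAAAgctgtagtcaaca
Abcc4 (chr14:118882104-118882133, minus strand): tggtagtcgcagttgatatttcaagagagt
Abcc5 (chr16:20331568-20331597, minus strand): acctcaggttgctgattgctgtgtggtttg
Abcg2 (chr6:58642342-58642371, plus strand): aattgcctacctgaaattgttgtttcttaa
The P-glycoprotein genes are neighbours on chromosome 5, and *Abcb4* lies next to them. AATAAA was present in 11 of the 74 ABC probes (14.9%) against 10.1% of all probes on the array.

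A gene was called measured when a probe of it was well above background, by the scanner software, on at least 1 array. Of the 50 ABC genes 28 were measured (56.0%, against 58.6% of all genes), 27 of them on both arrays. The level of each is a quantile-normalized signal in intensity units, and the log2 ratio is ALDH-positive minus ALDH-negative. If more than 1 probe of a gene was measured, the probe with the highest mean log2 signal stood for it. Pairs of signals are given with ALDH-negative first and ALDH-positive second. Levels of different genes come from different probes and are not compared. Before normalization all 28 genes had the higher signal in ALDH-positive cells, with log2 ratios from 0.16 to 0.91, beside a median of 0.51 over all measured genes, so every ratio below is relative to that common shift between the arrays.

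A gene was called higher at a ratio of 1.5 or more with a Z-score of 2 or more, and lower at a ratio of 0.75 or less with a Z-score of -2 or less. The Z-score sets a log2 ratio against those of its neighbours, 250 probes each way when ranked by mean log2 signal. No measured ABC gene passed these limits in either direction, where 1.60% of the 20378 measured genes were called higher and 3.28% lower. By the ratio alone 1 ABC gene, *Abcg1*, was above 1.5, against 5.72% of all measured genes, and none was at 0.75 or less, against 9.84%. The farthest Z-score of the family was 1.41, of *Abcc10*. The log2 ratio was within its error of 0 in 21 of 28 ABC genes, against 62.5% of all measured genes. The lowest error among the measured ABC genes was 0.20, and so was the median error of all measured genes. To be within the error was thus, for most genes, close to a fixed cut at 0.20, and 21 ABC genes had an absolute log2 ratio of at most 0.2. The log2 ratio was above 0 in 18 of 28, where 53.9% of all measured genes were. The median log2 ratio of the 28 genes was 0.057, beside 0.02 over all measured genes, and 19 of the 28 lay between -0.15 and 0.17, which are the quartiles of all measured genes. In RNA from many cells, fewer cells with a transcript and less of it per cell cannot be told apart, so these values are averages over each sorted population.

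**Figure D1:**
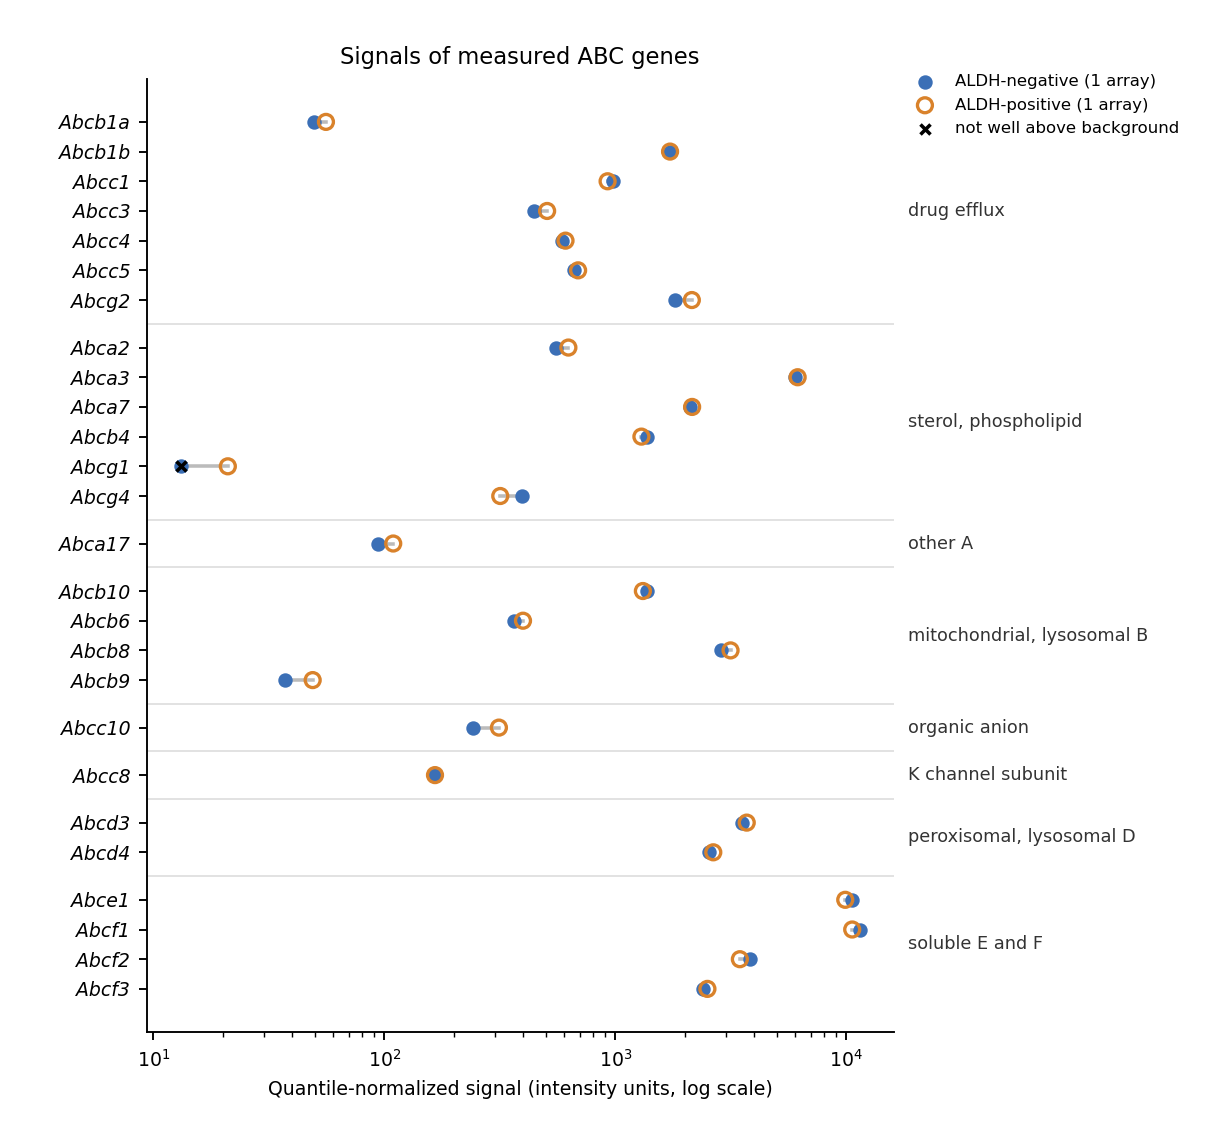
Quantile-normalized signal (intensity units, log axis) of 26 measured ABC genes, by role, with a filled circle for the ALDH-negative and an open circle for the ALDH-positive array. The circles of most genes overlap, and the cross marks *Abcg1*, which was not well above background on the ALDH-negative array.

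The drug efflux genes showed near-equal signals in both populations. Of the 8, 7 were measured on both arrays, none passed the limits, and their log2 ratios ran from -0.07 to 0.25 with a median of 0.058. The other 21 measured ABC genes had a median of 0.057. The difference between the medians was 0.0, and between -0.06 and 0.0 with the other normalizations and background corrections and from the deposited table. It was 0.07 with the median over the probes of a gene and -0.07 without the last eighth of array rows and columns, so its sign depended on the setting.

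*Abcg2*, the transporter behind the dye-excluding side population, had a signal of 1804.2 (ALDH-negative) and 2143.1 (ALDH-positive). Its log2 ratio of 0.25 (error 0.20, Z-score 1.25) is a ratio of 1.19, with 1.03 to 1.37 as the range that the error gives. It was the only efflux gene whose ratio was outside its error, and it stayed under the limit of 1.5 over that whole range.

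The signal of *Abcb1b* was 1728.3 (ALDH-negative) and 1724.8 (ALDH-positive), a log2 ratio of -0.003 (error 0.20). *Abcb1a* gave 49.8 and 55.84, a log2 ratio of 0.17 (error 0.24). The ratio of *Abcb1a* was 0.07 after a shift of each array by its 75th percentile, 0.04 with normexp, a model-based background correction, and 0.06 with no correction. Neither P-glycoprotein gene was outside its error.

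Among the multidrug resistance-associated proteins, *Abcc3*, an exporter of organic anion conjugates, had 442.6 (ALDH-negative) and 506.4 (ALDH-positive), a log2 ratio of 0.19 (error 0.20). *Abcc1*, which exports glutathione conjugates, was the only one with the lower signal in ALDH-positive cells, 925.4 against 974.0, a log2 ratio of -0.07 (error 0.20). *Abcc4* carries cyclic nucleotides and prostaglandins, and its 590.1 and 608.3 gave a log2 ratio of 0.04 (error 0.20). All of these were within their error. *Abcc2*, the canalicular exporter of the liver, was not well above background on either array, with signals before normalization of 3.08 and 3.28.

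*Abcc5*, an exporter of cyclic nucleotides and nucleotide analogues, allowed a view of the spread within an array, since the probe that stood for it was printed 10 times. Before normalization the spots had a lowest signal of 525, a median of 546 and a highest of 609 on the ALDH-negative array. On the ALDH-positive array they had 764, 826 and 864. Every spot of the ALDH-positive array was above every spot of the other, and the log2 ratio by spot position was 0.57 ± 0.075 (SD over 10 positions), close to the shift of 0.51 that all measured genes shared. After normalization the probe had 662.7 (ALDH-negative) and 689.7 (ALDH-positive), a log2 ratio of 0.06 (error 0.20). The spots are repeats of 1 sample on 1 array and not replicates of the cells.

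The efflux values differed by position on the array. The efflux genes with most of their spots among the final eighth of array rows or columns (*Abcb1a*, *Abcc3*, *Abcc4* and *Abcg2*, 4 of 7) had a median log2 ratio of 0.18. *Abcc5* had 5 of its 10 spots there, and the log2 ratio before normalization was 0.56 ± 0.098 (SD, 5 spots) at these and 0.58 ± 0.053 (SD, 5 spots) elsewhere. *Abcb1b* and *Abcc1*, with no spot there, had -0.003 and -0.07. The 5 efflux genes with any spot in that eighth had a median of 0.165, and the other 2 had -0.038. Over all measured genes the medians were 0.015 for genes with any spot there and 0.021 for the rest, and over the ABC genes 0.058 for 11 and 0.024 for 17. The part of position in the efflux values was not tested.

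**Figure D2:**
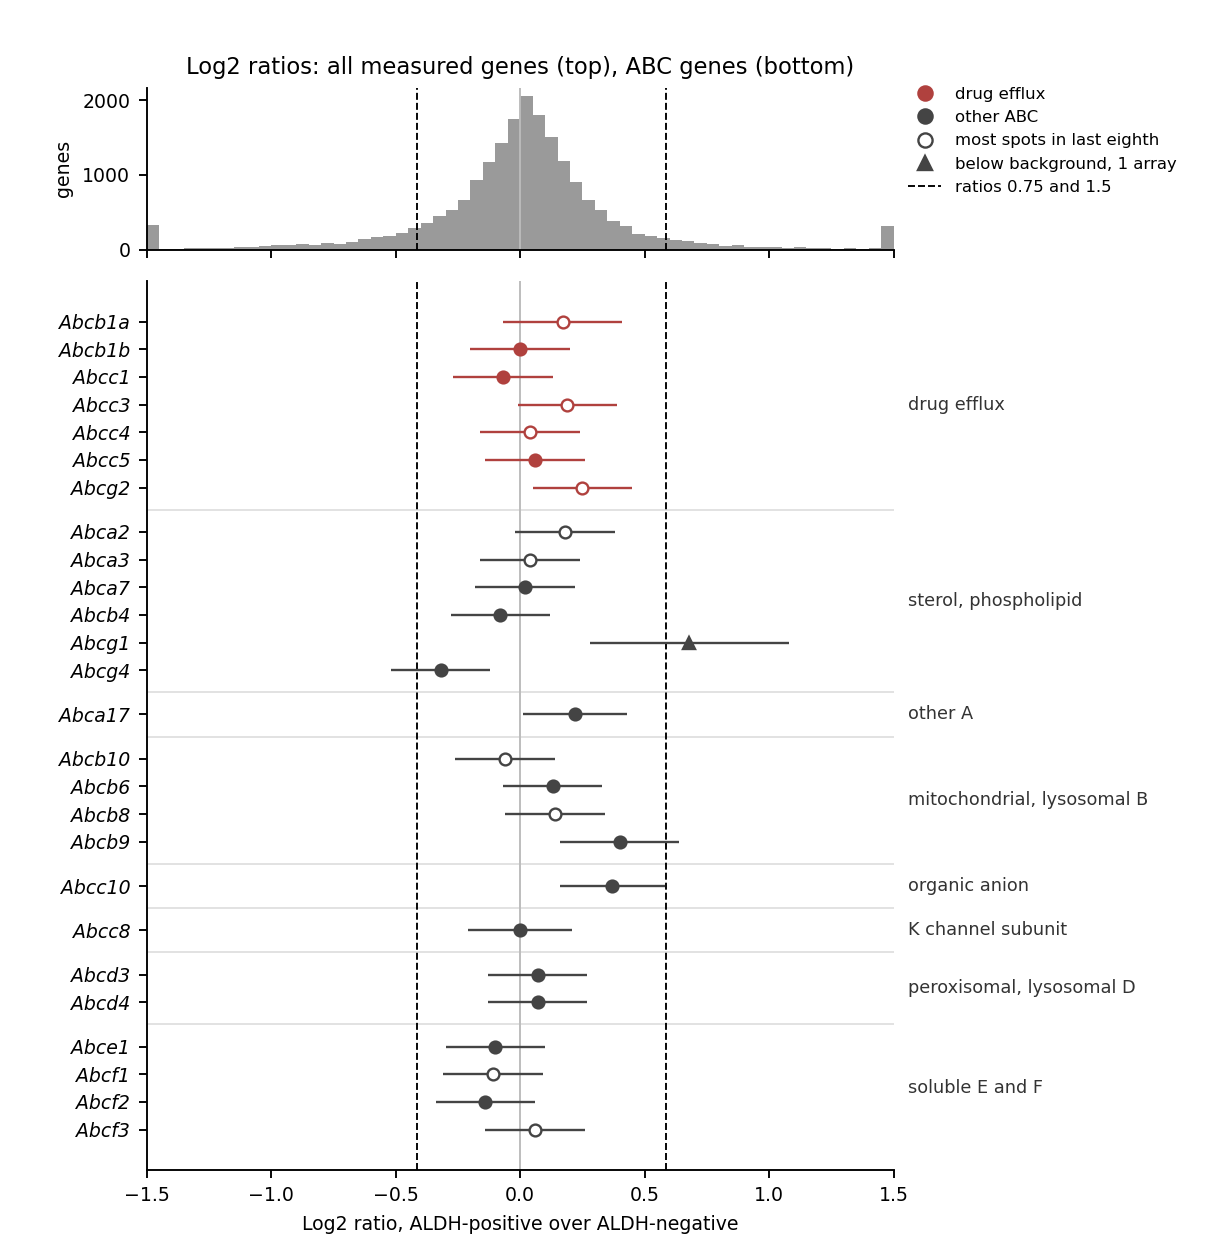
Log2 ratio of ALDH-positive over ALDH-negative for all 20378 measured genes (top, number of genes per bin, end bins hold all values beyond them) and for 26 measured ABC genes (bottom), where bars show the error. Dashed lines are ratios of 0.75 and 1.5, and only *Abcg1* lies beyond either of them.

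The sterol and phospholipid transporters had 6 of 12 genes measured, with none past the limits and a median log2 ratio of 0.031. *Abcg1*, which passes cholesterol to high-density lipoprotein, cleared background only on the ALDH-positive array. Its quantile-normalized signals were 13.14 (ALDH-negative) and 21.0 (ALDH-positive), a ratio of 1.6, with 1.21 to 2.11 as the range that the error gives. The lowest signal well above background on the ALDH-negative array was 13.1, so the lower of its signals was at that floor. The log2 ratio was 0.68 (error 0.40, Z-score 0.52), and it was 0.45 after the 75th percentile shift, 0.18 with normexp and 0.14 without background correction. *Abcg1* was the ABC gene with the widest error.

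*Abca3*, which loads lipid into lamellar bodies, gave 5998.9 (ALDH-negative) and 6153.6 (ALDH-positive), a log2 ratio of 0.04. *Abca7*, a phospholipid transporter, gave 2113.2 and 2149.1, a log2 ratio of 0.02. *Abcb4*, the phosphatidylcholine translocator next to the P-glycoprotein genes, gave 1365.6 and 1296.4, a log2 ratio of -0.08. These were within their error of 0.20, as was *Abca2*, a lipid transporter of lysosomes, with 551.3 and 626.0 and a log2 ratio of 0.18. The cholesterol exporter *Abca1*, the retinal *Abca4*, the keratinocyte lipid transporter *Abca12*, *Abca5*, and the sterol pair *Abcg5* and *Abcg8* were not well above background on either array.

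*Abcg4*, a relative of *Abcg1* best known from brain, gave opposite values with its measured probes. The probe that stood for it had 395.9 (ALDH-negative) and 317.4 (ALDH-positive), a log2 ratio of -0.32 (error 0.20, Z-score -1.39). The other had much weaker signals of 23.8 (ALDH-negative) and 31.42 (ALDH-positive), a log2 ratio of 0.40 (error 0.32). They differed by 0.72, with an error of 0.38 for the difference, and the median of both was 0.04. The probe with the higher signal was assigned to a transcript record that the gene table used here does not hold. No direction can be given for *Abcg4*.

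Of the 9 remaining A subfamily genes only *Abca17* was measured, at 93.67 (ALDH-negative) and 109.2 (ALDH-positive), a log2 ratio of 0.22 (error 0.21). In the mitochondrial and lysosomal B subfamily no measured gene passed the limits. *Abcb9*, the lysosomal peptide transporter, had 36.98 and 48.92, a log2 ratio of 0.40 (error 0.24), which was 0.16 with normexp and 0.15 without background correction. *Abcb8* of the inner mitochondrial membrane had 2855.2 and 3152.7, a log2 ratio of 0.14. *Abcb6*, which carries porphyrins, had 364.7 and 398.2, a log2 ratio of 0.13. *Abcb10*, which serves haem supply in mitochondria, had 1368.2 and 1315.5, a log2 ratio of -0.06. Of these 4 genes *Abcb9* alone was outside its error.

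*Abcc10*, which exports taxanes among other compounds but was not among the efflux members compared here, had 242.0 (ALDH-negative) and 313.2 (ALDH-positive). Its log2 ratio of 0.37 (error 0.21, Z-score 1.41) is a ratio of 1.29, with 1.12 to 1.49 as the range that the error gives. The value held between 0.33 and 0.37 under the other normalization and background settings. The bile salt exporter *Abcb11* and the anion transporters *Abcc6* and *Abcc12* were not well above background. Of the sulphonylurea receptors, which are potassium channel subunits, *Abcc8* was measured with 165.8 and 165.6, a log2 ratio of -0.001, and *Abcc9* was not.

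In the D subfamily no measured gene passed the limits. *Abcd3*, the main ABC protein of the peroxisomal membrane, had 3521.7 and 3704.7, and *Abcd4*, which serves the release of cobalamin from lysosomes, had 2530.5 and 2653.9, each a log2 ratio of 0.07. The soluble E and F subfamilies were measured in full, and their median log2 ratio was -0.10. *Abce1*, which recycles ribosomes, had 10597.6 and 9890.9, a log2 ratio of -0.10. *Abcf1*, a factor of translation initiation, had 11410.6 and 10601.5, a log2 ratio of -0.11. *Abcf2* had 3813.0 and 3459.4, a log2 ratio of -0.14, and *Abcf3* had 2405.7 and 2503.2, a log2 ratio of 0.06. All 4 were within their error of 0.20.

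Several probes to 1 gene are not replicates, but they show how far a value depends on the probe taken. The genes named here had more than 1 measured probe. The measured probes differed in log2 ratio by 0.05 for *Abcb8*, 0.08 for *Abca2*, 0.16 for *Abcf1*, 0.34 for *Abcc5* and 0.72 for *Abcg4*. Those of *Abcc5* and *Abcg4* differed by more than the error of the difference, which was 0.30 and 0.38. In both genes the measured probes were assigned to more than 1 transcript record, and for *Abcg4* probe and transcript cannot be told apart. The *Abcc5* probes had log2 ratios of -0.07 and 0.22 on 1 record and of 0.06 and 0.28 on the other, so they differed within a record as well. The 3 *Abcc5* probes that did not stand for the gene had weaker signals, between 19.84 and 110.3 over both arrays. The part of probe and transcript in these values was not tested. The 4 probes of *Abcc5* had log2 ratios from -0.07 to 0.28, where the 7 efflux genes ran from -0.07 to 0.25. The last 30 bases of its other 3 probes, on the minus strand of NCBI37, are shown in the direction of that strand and with AATAAA in capitals. The last of them is assigned to another transcript record than those before it.
Abcc5 (chr16:20404654-20404683): atcgtgtgcctgatgatcacgcagttggct
Abcc5 (chr16:20400837-20400866): atttcattttcAATAAAagtacactgcttc
Abcc5 (chr16:20392789-20392818): gatagagatgaaaaatgccaccttggcatg

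**Figure D3:**
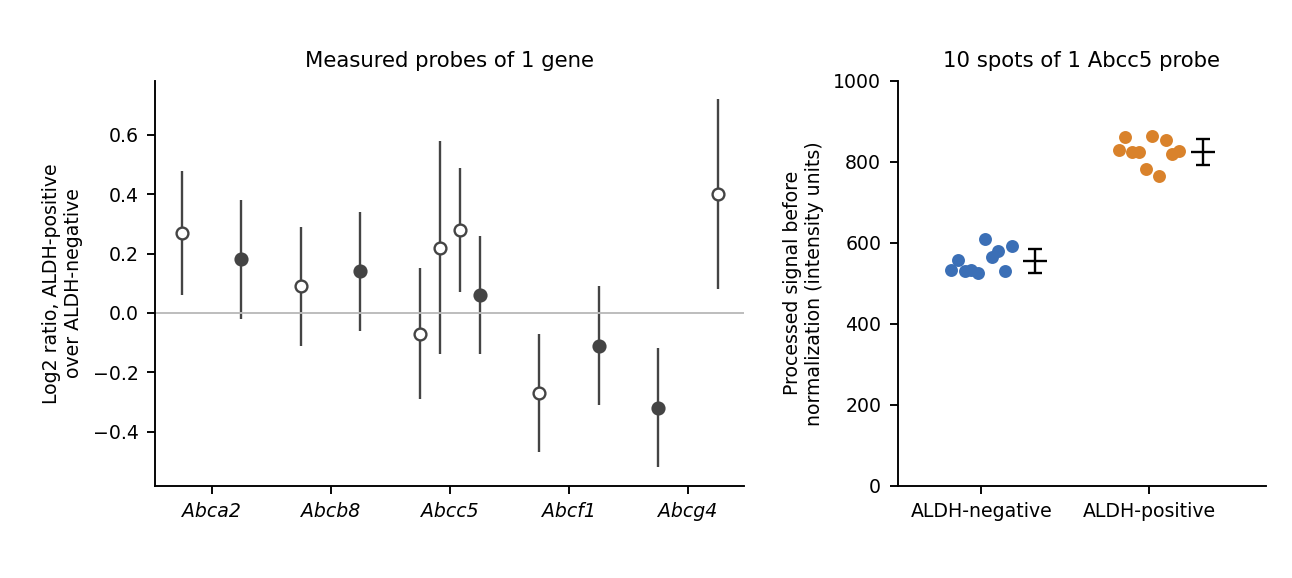
Left, log2 ratio of each measured probe of 5 genes with several, ordered within a gene by the position that the array file gives in the probe's own transcript record, with the scanner software's error and a filled circle for the probe that stood for the gene. Right, processed signal before normalization (intensity units) of the 10 spots of the *Abcc5* probe on each array, with mean and SD over spots, between 525 and 609 in ALDH-negative and between 764 and 864 in ALDH-positive cells.

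Pairs of probes that overlap show that detection also rested on the probe. For *Abcc8* a pair shared 47 bases and lay 13 bases apart. The upstream probe had signals before normalization of 143 and 192, well above background on both arrays, and the downstream probe had 2.95 and 3.12. For *Abcg4* a pair shared 44 bases and lay 16 bases apart, with 21.5 and 35.1 upstream and 7.05 and 14.3 downstream. The ends that only 1 probe of each pair has are in capitals, as 30 bases from the 5′ end of the upstream probe and 30 bases from the 3′ end of the downstream probe, all on the minus strand of NCBI37.
Abcc8 upstream (chr7:53359951-53359980): AGCGTGCCGCCCCgcacctcacttgcttgc
Abcc8 downstream (chr7:53359908-53359937): ctgtaaatcacttgtaaATAAAGAAATTAA
Abcg4 upstream (chr9:44081332-44081361): TGTATCTGCCCCAGGTtcttctcattacac
Abcg4 downstream (chr9:44081286-44081315): tgtgggatttcaccCATTATTAATAAAACC
Both downstream probes hold AATAAA toward their 3′ end and were not well above background on either array. AATAAA was also in 5 of the 36 measured ABC probes, and its part in detection was not tested. Because detection differed within these pairs, that a gene was not measured is a statement on its probes.

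The 22 genes that were not measured were 21 of the 42 other ABC genes and *Abcc2*. With the weaker probes of measured genes, 38 ABC probes were below background on both arrays and had signals before normalization of at most 7.05 and 14.3. Of these probes 2 passed the limits in number only, a second probe of *Abcb8* with normalized signals of 3.62 and 2.71 and the probe of *Abca8a* with 2.71 and 4.46, as did 1.81% of the 27107 probes below background, and no ratio is given for them. The genes that were not measured include 8 of the 9 remaining A subfamily genes, *Abcd2*, a peroxisomal fatty acid importer, and *Abcb5* and *Abcg3*, which were put in no role. None of the 5 genes of the *Abca5* to *Abca9* group on chromosome 11, of the 3 genes *Abca14* to *Abca16* on chromosome 7, and of the pair *Abcg5* and *Abcg8* on chromosome 17 was measured. All 3 of *Abcb1a*, *Abcb1b* and *Abcb4* on chromosome 5 were, as were *Abcb8* with *Abcf2*, *Abcc5* with *Abcf3*, and *Abca17* with *Abca3*. In the remaining groups 1 of 2 was measured, *Abcd3* but not *Abca4* on chromosome 3 and *Abcc8* but not *Abcc6* on chromosome 7. Groups were formed from neighbours within 500000 bases in assembly GRCm38.p6.

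The study concerned the clock factor CLOCK, which binds the E-box CACGTG as a dimer. Promoter windows of RefSeq on GRCm38.p6 were found for 38 of the 50 genes, with 45 windows, and CACGTG, read on both strands, was in 6 of them (13.3%) against 7.15% of 32851 promoters of the same length. Of the genes that hold it only *Abcc4* and *Abcf1* were measured, and their windows are shown with the motif in capitals.
Abcc4 (GRCm38.p6 chr14:118706407-118706436, minus strand): acgggtctcaagCACGTGcggcttccccgc
Abcf1 (GRCm38.p6 chr17:35969834-35969863, minus strand): gcccctttgcccCACGTGtctgcgcagcag
Their log2 ratios were 0.04 and -0.11, both within the error. A match of letters is not a bound site. The core of the antioxidant response element, TGACNNNGC on either strand, was in 7 of the 45 windows (15.6%) against 12.4% of all promoters. These windows belong to *Abca8b*, where it overlaps the E-box, *Abcb1a*, *Abcc10*, *Abcc2* and *Abcc4*.

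Genes that work with ABC transporters were read from lists by role. *Cftr*, a chloride channel, and the peptide transporters *Tap1* and *Tap2* are ABC proteins under other names, and none of the 3 passed the limits, with log2 ratios of -0.76 (error 0.35, 28.99 and 17.07), 0.21 and 0.11. Of 10 partners of ABC proteins 7 were measured and none passed the limits, from 0.0 to 0.24. Of 12 listed regulators of ABC genes 10 were measured, with a median log2 ratio of 0.001. All were transcription factors except *Keap1*, which had -0.06. Only the xenobiotic receptor *Nr1i3* was lower, 82.24 in ALDH-positive against 178.3 in ALDH-negative cells, a log2 ratio of -1.12 (error 0.21, Z-score -3.35), with its spot in the last eighth of the array. The sterol sensors *Nr1h2* and *Nr1h3* had 0.03 and 0.13, and the antioxidant regulator *Nfe2l2* had -0.01. Of 6 further targets of these sterol sensors 5 were measured, and *Mylip*, a ligase that marks the LDL receptor for degradation, was higher, 130.5 in ALDH-positive against 74.61 in ALDH-negative cells, a log2 ratio of 0.81 (error 0.21, Z-score 2.07). *Srebf1*, a regulator of lipid synthesis, had 0.36 and did not pass. The remaining *Lpcat3*, *Scd1* and *Scd2* had -0.01, 0.0 and -0.08, and the median of the 5 was -0.004.

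Glutathione conjugates are a main cargo of the C subfamily. From glutathione synthesis and conjugation 15 genes were listed here, a choice and not the whole pathway, and all 15 were measured. None of them passed the limits. Their log2 ratios were above 0 in 12 of 15 (80.0%, against 53.9% of all measured genes), with a median of 0.16 beside 0.02. In 10 of 15 the log2 ratio was within its error of 0 (66.7%, against 62.5% of all measured genes). The conjugating enzymes *Gstt2*, *Gstt1* and *Mgst1* were farthest from 0, at 0.60 (31.18 and 47.3), 0.53 (84.06 and 121.4) and 0.34 (958.8 and 1212.0). *Gclm*, a subunit of the rate-limiting enzyme of glutathione synthesis, had -0.19. Of 16 uptake transporters for organic anions and cations 7 were measured, none passed, and their median was 0.19, with 0.43 for *Slc22a18*.

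Transcripts of the enzymes that the sort reads and markers of other cells were looked at as well. ALDEFLUOR reads enzyme activity, so these transcript levels cannot check the sort. Of 9 ALDH isoforms known to turn over the ALDEFLUOR substrate 7 were measured and none passed the limits, with log2 ratios from -0.05 to 0.23. Of these 7 isoforms 6 were within their error of 0. All 4 epithelial markers were well above background on both arrays, with summed signals of 317910.0 (ALDH-negative) and 357538.1 (ALDH-positive). *Krt18* and *Krt8* made up most of these sums. The log2 ratios were 0.16 for *Krt18*, 0.18 for *Krt8*, 0.17 for *Cdh1* and 0.40 for *Epcam*, each with an error of 0.20. None of the 4 passed the limits, and *Epcam* alone was outside its error. Of 9 leukocyte markers on the array 6 were measured, with sums of 10505.3 and 6932.8. *Itgam*, which made up most of the sum, was lower (7300.9 and 3795.2). *Cd3e* and *Csf1r* had log2 ratios of -0.47 and -0.34 and did not pass the limits. The other 3 of the 6 had log2 ratios above 0, *Cd68* with 0.44, *S100a8* with 0.31 and *Cd14* with 0.27. The median of the 6 was -0.032. Of the leukocyte markers the defining *Ptprc* and *Ly6g* were not well above background. Of 6 endothelial markers 2 were, with sums of 7319.3 and 5425.6. *Kdr* was lower (7292.2 and 5394.3), *Pecam1* had a log2 ratio of 0.21 (27.03 and 31.29), and *Cdh5*, *Tek*, *Vwf* and *Cldn5* were not well above background. Of 7 fibroblast markers 4 were measured, with sums of 276.8 and 333.0. *Postn* was higher (74.01 and 144.2), and *Pdgfra*, *Col1a2* and *Col1a1* had log2 ratios of -0.03, -0.02 and -0.70. The part of these cells or genes in the ABC values was not tested.

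**Figure D4:**
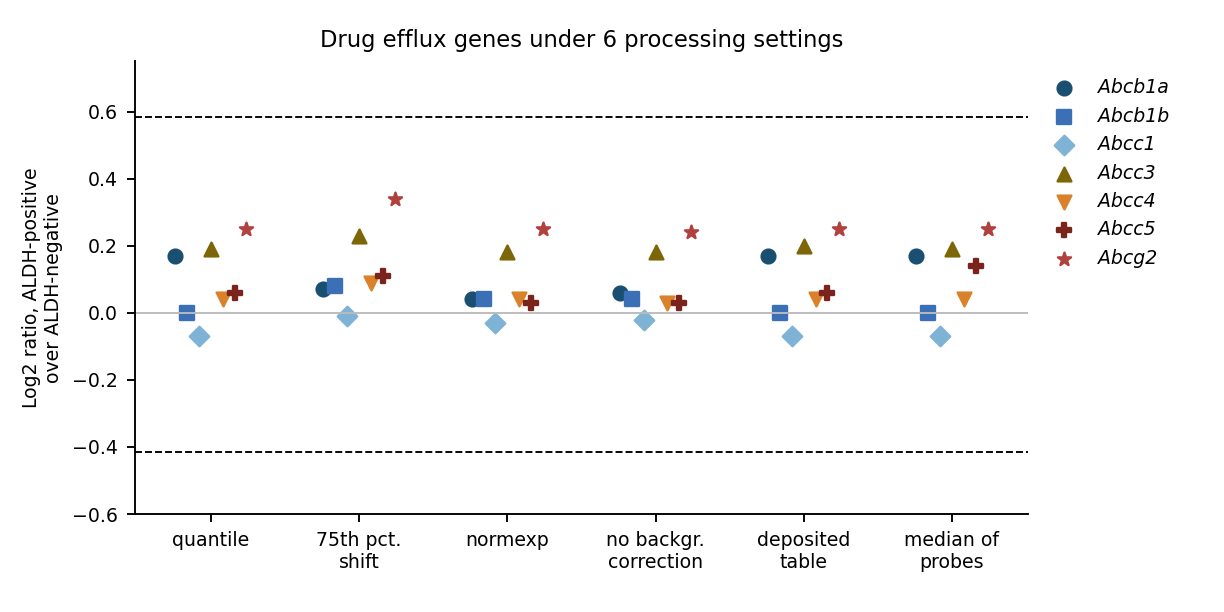
Log2 ratio of ALDH-positive over ALDH-negative for the 7 measured drug efflux genes under quantile normalization of the processed signals, a 75th percentile shift, normexp, no background correction, the deposited table and the median over the measured probes of a gene. Dashed lines are ratios of 0.75 and 1.5, which no efflux gene reached under any of these settings.

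The efflux genes kept under the limit of 1.5 with each way of processing that was run. Their median log2 ratio was 0.091 after the 75th percentile shift, 0.038 with normexp, 0.041 without background correction and 0.058 from the deposited table. It was 0.137 with the median over the probes of a gene, and -0.003 over the 3 genes left without probes that had most of their spots in the last eighth of the array. It was also -0.003 over 3 genes without every probe that had any spot there, an alternative chosen after seeing the data, where another probe stood for *Abcc5*. Leaving out each efflux gene in turn gave medians from 0.051 to 0.111.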

How the data were processed

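The deposited scanner files give processed signals in intensity units for each spot, after background subtraction by Feature Extraction (version 9.5.1.1 per the labels, 10.7.1.1 per the file headers), and the authors also deposited a table of quantile-normalized intensities. Here control spots and outlier spots (135 and 116 for ALDH-negative and ALDH-positive) were left out, log2 signals of repeated spots were averaged, and 55681 probes were quantile-normalized (limma 3.58.1, R 4.3.3). The 75th percentile of the probes was 234 and 322.4 before normalization. No spot was saturated. The quantile normalization and the limits on ratio and Z-score follow the study's methods, and the Z-score, which they do not define, was built here. The labels and the methods name different RNA extraction kits. Against the deposited table, log2 ratios moved by a median of 0.000428, with a maximum of 0.673.

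Results were recomputed with a 75th percentile shift, normexp background correction (offset 50), no background correction, the deposited table, the median over probes, only probes well above background on both arrays, without the last eighth of rows and columns, with 100 or 500 probes on either side or all probes for the Z-score, and with a ratio limit of 1.5 both ways. Of the 28 measured ABC genes 26 were named and the values of some genes are not reported here. The text also names genes of other lists past the limits or farthest from 0. The members, lists and rules were chosen with earlier results of these data known. Gene names are those of the array, and 67 of 74 ABC probes matched the gene table used under the same symbol. The processing was tested on simulated data.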

Additional observations from a re-analysis of the deposited data

How the results depend on the processing

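No ABC gene passed the limits under any alternative that was run, which were all those listed among the methods above. Over the same alternatives and the one added later, the median log2 ratio ran from 0.041 to 0.117 for the ABC genes (0.057 as reported), from -0.003 to 0.137 for the drug efflux genes (0.058) and from 0.047 to 0.148 for the other ABC genes (0.057). Of 187 recomputed gene values 181 moved by less than their error and 6 by more, among the latter those of *Abcb9*, *Abcg1* and *Abcg4*. The sign of the log2 ratio changed under at least 1 setting in 6 genes, among them *Abcb10*, *Abcb1b*, *Abcb4*, *Abcc8* and *Abcg4*. The ABC genes above 0 were 18 with quantile normalization and from the deposited table, 19 without background correction, and 21 with normexp and after the 75th percentile shift. Of the 28 measured genes 27 were well above background on both arrays. No paired analysis was possible because each population was put on a lone array. With 1 array each, differences between cultures, sorts and labelling reactions cannot be told apart from a difference between the populations.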
